A study of Mus musculus with 23 samples.

Results

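Lysosomes are the acidic compartments in which macrophages break down what they take up. Their hydrolases are made in the endoplasmic reticulum, are delivered through the Golgi and endosomes, and work at the low pH that the vacuolar proton pump (V-ATPase) maintains behind a membrane coated with glycoproteins. In macrophages these genes are part of the resting equipment of a phagocyte, and many of them are known to respond to transcription factors of the MiT/TFE family. The data described here are the transcript levels of 39 listed mouse genes of this compartment, chosen by name as lysosomal hydrolases, membrane proteins and V-ATPase subunits, in bone marrow-derived macrophages (BMDM). A probe of the arrays was found through its transcript accession for 38 of the 39 genes. The exception was Cd68, a lysosomal glycoprotein used as a macrophage marker, for which no named probe was found. The 38 genes were covered by 48 probes and were read among 26014 gene entries tested in all.

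BMDM were grown from femoral marrow of male C57BL/6 mice (for the knockouts the study's methods name a C57BL/6J background) aged 10 to 14 weeks, with 10 ng/ml M-CSF (the growth factor that drives marrow cells to become macrophages) for 9 days. There were 3 genotypes: wild-type (wt), MK2-/- and MK2/3-/-. MK2 and MK3, encoded by Mapkapk2 and Mapkapk3, are protein kinases that act directly below the stress kinase p38. Cells were left in medium or received 100 ng/ml lipopolysaccharide (LPS, a bacterial cell wall component sensed by Toll-like receptor 4) for 120 min, which gave 6 groups of 4 arrays each, except MK2-/- in medium with 3. The question posed by the design is whether deleting MK2, alone or with MK3, alters the response of macrophages to LPS. Medium and LPS arrays of a genotype were treated as pairs of 1 culture by their replicate number, mouse age and slide column, which gave 11 pairs (MK2-/- medium replicate 3 went with LPS replicate 4, culture 4). Whether replicates came from separate animals is not stated in the labels, in which mouse age differs between some replicates of a genotype. The study's methods report 4 independent experiments for each time point. The p-values measured the spread between these samples.

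All values below are log2 of the normalized array intensity, and differences are on the same log2 scale, on which 1 is a 2-fold difference. A probe's brightness depends on its sequence, so levels were compared between samples for each probe and not between genes. A difference was called when the adjusted p-value of limma, corrected over all 26014 entries, was under 0.05. All 38 genes were well above background on all 23 arrays, and the median SD within a group was 0.26 for them, against 0.31 for the 12646 genes well above background everywhere and 0.44 for all genes. The tightest member was Lamp1 with an SD of 0.076, and the most variable ones were Atp6v0d2 (1.09), Ctsk (0.94) and Ctsf (0.47). One array value was missing for Lgmn (wt medium, replicate 1) and one for Gla (MK2-/- LPS, replicate 1), and the fit used the remaining arrays.

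All 7 macrophage markers examined were well above background on every array of every group. So were 5 or 6 of 7 neutrophil, 5 to 7 of 8 osteoclast and 3 or 4 of 5 dendritic cell markers in each group. Signal above background thus does not set macrophages apart here. All 7 LPS response genes rose in each genotype, led in wt BMDM by Ifnb1 (12.79 ± 0.45, SE) and Il6 (11.67 ± 0.86). In medium Mapkapk2 differed from wt BMDM by -3.31 in MK2-/- and by -3.50 in MK2/3-/- BMDM, and Mapkapk3 by -1.62 in MK2/3-/- BMDM, although the probes of both genes still gave signal in the cells lacking them. Where on the transcripts the deletions lie relative to these probes is not given in the sources used here. Each genotype was hybridized to a slide of its own and each treatment to a row of the slide, so genotype and slide, and treatment and row, cannot be told apart. The share of probes well above background ranged from 47.5% to 69.1%, with group medians of 58.2% in wt medium and 50.3% in MK2-/- LPS at the extremes. Because RNA of whole cultures was measured, fewer cells of a type and less RNA per cell cannot be told apart.

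Upon LPS treatment for 120 min, 3 to 6 of the 38 lysosomal genes were called in a genotype, and this number rose to between 9 and 11 once the culture was a random block. In wt BMDM 3 of 38 genes were called (7.89%), all lower, against 17.1% of all entries (8.26% higher and 8.89% lower) and 28.2% of the genes well above background on every array. In MK2-/- BMDM 5 of 38 were called (13.2%), 4 lower and 1 higher, against 18.6% of all entries (10.1% lower and 8.48% higher). The MK2/3-/- BMDM had 6 of 38 called (15.8%), 4 lower and 2 higher, against 24.9% of all entries (12.9% lower and 11.9% higher). Of the genes well above background on every array, 29.4% and 39.5% were called in MK2-/- and MK2/3-/- BMDM. In every genotype the called share of the lysosomal genes lay below that of all entries in this fit. With the culture block it lay above that of all entries in wt BMDM (28.9% against 22%), was the same in MK2-/- BMDM (23.7% and 23.7%) and lay below in MK2/3-/- BMDM (26.3% against 30.9%). Beyond the called genes, 30 (wt), 31 (MK2-/-) and 27 (MK2/3-/-) of the 38 differences lay below 0 after quantile normalization, but only 16, 11 and 12 did when each array was instead scaled to its 75th percentile, so the general direction of the list depended on the scaling. Over the 3 genotypes 28 genes were called in no LPS comparison and 10 in at least 1. The share of all entries called in at least 1 of the 3 is not given here, so this count has no background beside it.

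**Figure D1:**
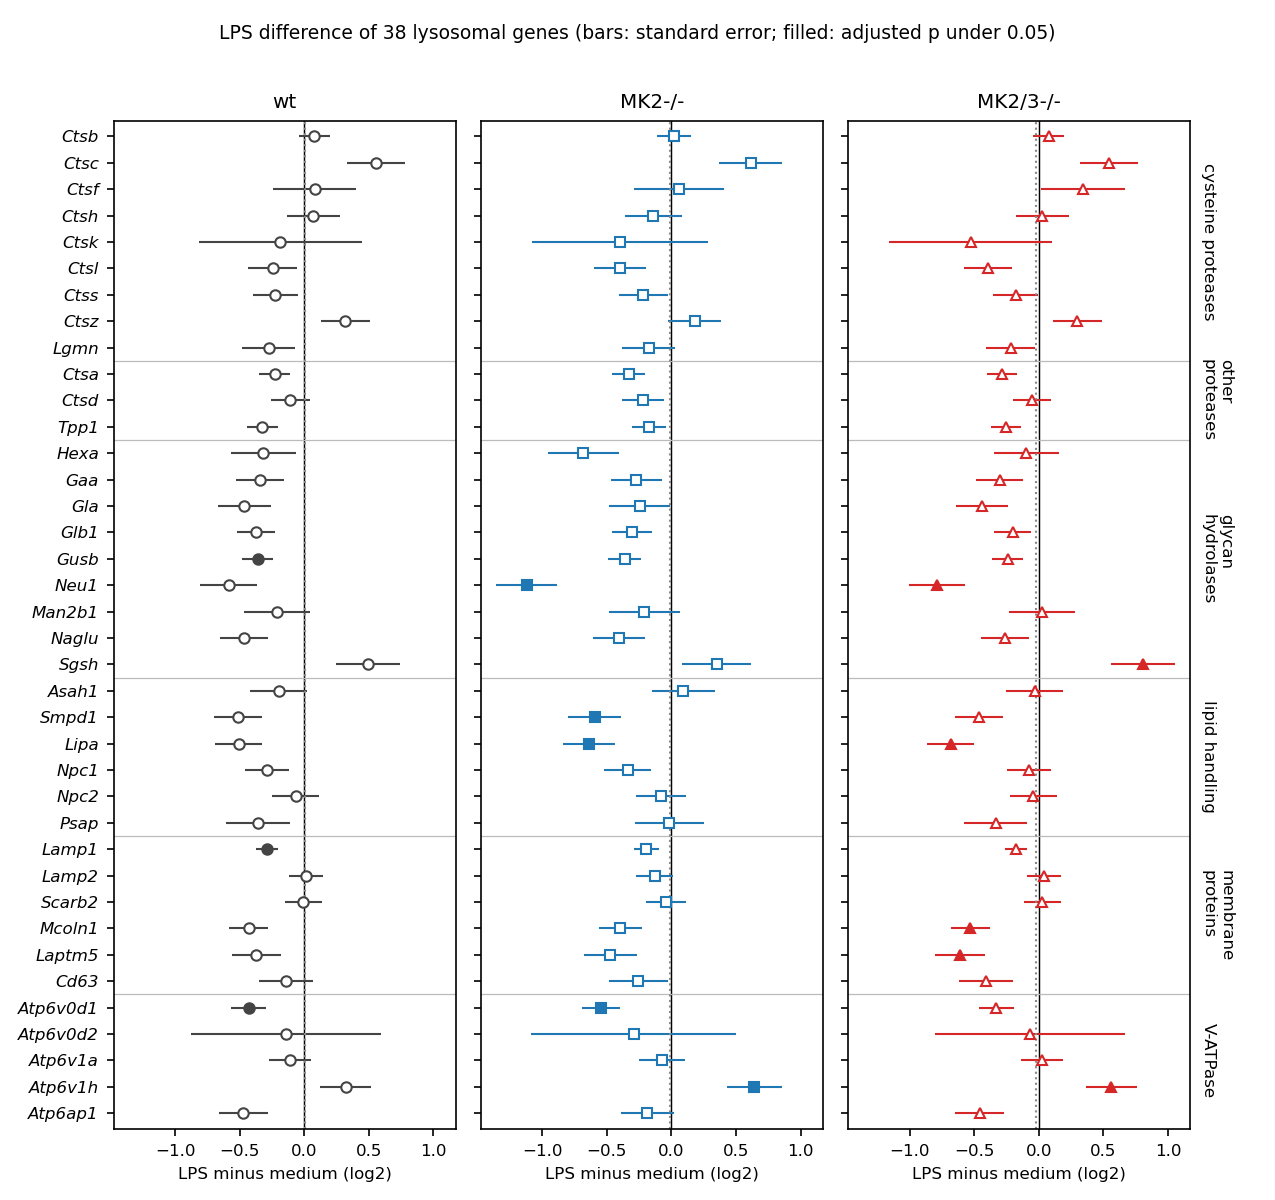
LPS minus medium difference (log2, quantile-normalized) of each of the 38 genes in wt, MK2-/- and MK2/3-/- BMDM, with standard errors as bars, the median of all genes as a dotted line and called differences filled. Filled points number 3, 5 and 6, and most open points lie left of 0 (30, 31 and 27 of 38 points lie below 0), a share that fell to 16, 11 and 12 of 38 under 75th percentile scaling.

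The 95% intervals set limits on what could have been missed. For 33 of 38 genes in wt BMDM, and for 30 in each of MK2-/- and MK2/3-/- BMDM, the whole interval of the LPS difference lay within 2-fold in either direction. Without correction for the number of genes, 13, 11 and 13 members had limma p-values under 0.05 in wt, MK2-/- and MK2/3-/- BMDM. The share of all entries under that unadjusted threshold is not given here. These counts, and the unadjusted ones below, therefore cannot be read as many or few.

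Among the 9 glycan hydrolases, which strip sugars from glycoproteins, glycolipids and glycosaminoglycans, Neu1 had, by the probes used and after quantile normalization, the most negative LPS difference of the 38 genes in each genotype, whereas under 75th percentile scaling Smpd1 in wt (-0.23) and Ctsk in MK2/3-/- BMDM (-0.52, not called) were lower. Neu1 is the lysosomal sialidase, which removes terminal sialic acids. In wt BMDM it read 14.53, 14.55, 14.65 and 14.52 in medium and 14.04, 13.49, 14.11 and 14.27 with LPS. In MK2-/- BMDM it read 14.76, 14.48 and 14.92 in medium and 13.61, 13.05, 13.67 and 14.07 with LPS. The MK2/3-/- arrays read 14.84, 14.43, 14.49 and 14.65 in medium and 14.09, 13.20, 13.87 and 14.09 with LPS. In all 3 genotypes every LPS array was below every medium array. The LPS array of replicate 2 was the lowest of its group in each genotype.

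Neu1 fell by 1.12 ± 0.24 (SE) in MK2-/- BMDM (adjusted p = 0.00182), which is 2.17-fold, and by 0.79 ± 0.22 in MK2/3-/- BMDM (adjusted p = 0.0109). In wt BMDM the difference was -0.58 ± 0.22 and was not called (adjusted p = 0.0775, and 0.0272 with the culture as a random block). The exact permutation p was 0.0286 in each genotype, the smallest that 4 against 4 or 4 against 3 arrays allow. The Neu1 call in MK2-/- BMDM remained when any 1 array was left out and under 75th percentile scaling (-0.72, adjusted p = 0.0359), where those of wt and MK2/3-/- BMDM were -0.20 and -0.40 and not called. The larger fall in MK2-/- than in wt BMDM was not a called difference in response (-0.54, 95% interval -1.21 to 0.14).

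Gusb, the β-glucuronidase of the lysosome, was called in wt BMDM only. It read 15.32, 15.70, 15.43 and 15.30 in medium and 14.78, 15.11, 15.17 and 15.25 with LPS in wt BMDM, and the groups did not overlap. This was a fall by 0.36 ± 0.12 (adjusted p = 0.0479) after quantile normalization, but the difference was 0.0092 under 75th percentile scaling, so the direction of Gusb was not settled. The values of the MK2-/- and MK2/3-/- cells (-0.36 ± 0.13 and -0.24 ± 0.12, adjusted p = 0.0605 and 0.167) were of like size, and both turned positive under that scaling (0.066 and 0.18). Of the other glycan hydrolases, Hexa, Gaa, Gla, Glb1, Man2b1 and Naglu had no called difference in any genotype. Their values ranged from -0.47 for Naglu to -0.21 for Man2b1 in wt BMDM. Naglu, which takes part in the breakdown of heparan sulfate, and Glb1, the lysosomal β-galactosidase, were called lower in wt BMDM, and Hexa, a subunit of β-hexosaminidase, in MK2-/- BMDM, once the culture was a random block.

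Sgsh, the sulfamidase that acts on heparan sulfate, was the glycan hydrolase with a called rise, but its 2 probes moved in opposite directions. The probe used was the one with the higher LPS difference in wt BMDM, following the study's methods. It read 17.19, 16.36, 17.05 and 16.67 in medium and 17.76, 17.63, 17.35 and 17.74 with LPS in MK2/3-/- BMDM, with no overlap between the groups, a rise of 0.81 ± 0.25 (adjusted p = 0.0214). The same probe gave 0.49 ± 0.25 and 0.35 ± 0.27 in wt and MK2-/- BMDM (adjusted p = 0.217 and 0.442).

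The second Sgsh probe, assigned to the same RefSeq transcript, read lower with LPS in all 3 genotypes. In wt BMDM it read 12.51, 13.49, 13.48 and 12.95 in medium and 10.89, 10.91, 12.18 and 11.89 with LPS. In MK2/3-/- BMDM it read 12.65, 13.23, 13.61 and 12.67 in medium and 11.44, 11.26, 12.00 and 12.08 with LPS. Its LPS arrays lay below its medium arrays in both. It fell by 1.64 ± 0.33 in wt, by 1.30 ± 0.36 in MK2-/- and by 1.35 ± 0.33 in MK2/3-/- BMDM, with limma adjusted p-values over the 32885 probes of 0.00128, 0.0134 and 0.00442. The mean of both probes gave -0.27 in MK2/3-/- BMDM. No direction can therefore be given for Sgsh transcript as a whole, and which probe reads which part of the transcript was not tested.

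**Figure D2:**
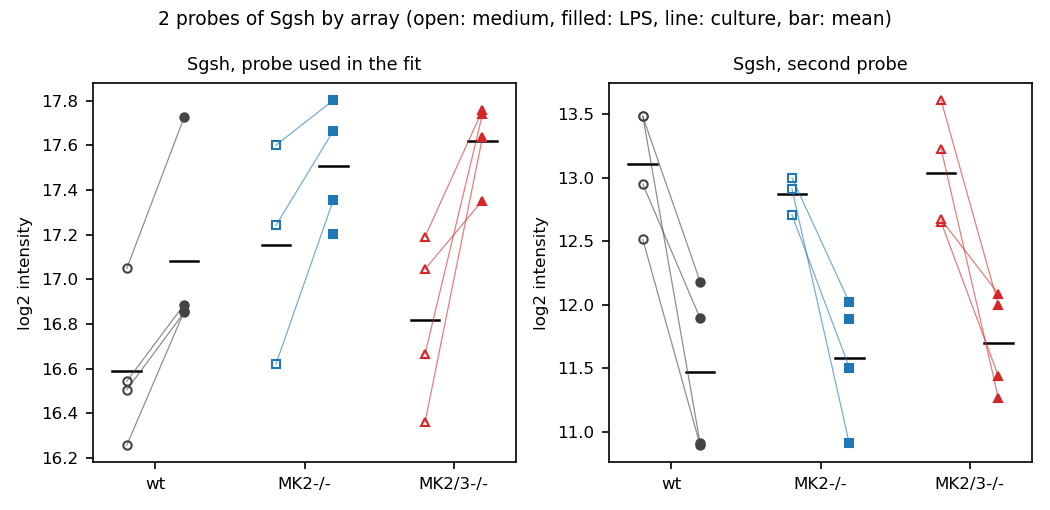
Normalized log2 intensity of the 2 Sgsh probes on each array, by genotype, in medium (open) and with LPS (filled), with lines joining arrays of a culture and bars at group means. The probe used in the fit rose (0.49, 0.35 and 0.81 in wt, MK2-/- and MK2/3-/- BMDM, of which only the last was called) while the second probe fell in all 3 genotypes (-1.64, -1.30 and -1.35).

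Among the 6 genes of lysosomal lipid handling, the lipases Lipa and Smpd1 were lower with LPS, and the remainder were not called. Lipa is the acid lipase that hydrolyzes cholesteryl esters and triglycerides, and Smpd1 is the acid sphingomyelinase. Lipa read 15.33, 15.68 and 15.37 in medium and 14.76, 15.00, 14.70 and 14.84 with LPS in MK2-/- BMDM. The MK2/3-/- arrays read 15.88, 15.66, 15.14 and 15.15 in medium and 15.14, 15.05, 14.39 and 14.52 with LPS. In wt BMDM it read 15.40, 15.68, 15.31 and 15.22 in medium and 14.92, 14.96, 14.87 and 14.82 with LPS. The groups overlapped only in MK2/3-/- BMDM, where cultures 1 and 2 lay above cultures 3 and 4 in both treatments, yet within each culture Lipa was lower with LPS. It was so in 11 of 11 cultures under either scaling, with differences from -0.75 to -0.40 after quantile normalization and from -0.44 to -0.00633 under 75th percentile scaling.

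Lipa fell by 0.64 ± 0.20 in MK2-/- BMDM (adjusted p = 0.0291, exact permutation p = 0.0286) and by 0.68 ± 0.18 in MK2/3-/- BMDM (adjusted p = 0.00898, exact permutation p = 0.0571). The value in wt BMDM was -0.51 ± 0.18 (adjusted p = 0.0677, and 0.0173 with the culture as a random block). Under 75th percentile scaling the values were -0.13, -0.20 and -0.27 in wt, MK2-/- and MK2/3-/- BMDM and none was called.

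Smpd1 was called in MK2-/- BMDM, where it read 13.14, 12.89 and 12.97 in medium and 12.39, 12.08, 12.53 and 12.60 with LPS, a fall by 0.59 ± 0.20 (adjusted p = 0.0476). It read 12.94, 12.78, 13.03 and 13.15 in medium and 12.52, 11.90, 12.63 and 12.79 with LPS in wt BMDM (-0.51 ± 0.19, adjusted p = 0.0706). It read 12.96, 12.66, 12.97 and 12.99 in medium and 12.29, 12.02, 12.67 and 12.76 with LPS in MK2/3-/- BMDM (-0.46 ± 0.19, adjusted p = 0.0831). Smpd1, like Lipa, was lower with LPS in 11 of 11 cultures under either scaling, and in both uncalled genotypes the culture-blocked fit called it (adjusted p = 0.0229 and 0.0311). Scaling to the 75th percentile gave differences of -0.23, -0.31 and -0.19 in wt, MK2-/- and MK2/3-/- BMDM and the call in MK2-/- BMDM was lost (adjusted p = 0.389). As with Neu1, its lowest LPS array in each genotype was replicate 2. Asah1 (acid ceramidase), Npc1 and Npc2 (which export cholesterol from the lysosome) and Psap (the precursor of the saposins, helpers of sphingolipid breakdown) had differences between -0.36 and 0.09 in the 3 genotypes.

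By the probes used, the membrane proteins divided into genes with small falls and genes near 0. Lamp1, an abundant glycoprotein of the lysosomal membrane, was called in wt BMDM. It read 17.74, 17.89, 17.81 and 17.74 in medium and 17.39, 17.53, 17.59 and 17.52 with LPS. The LPS arrays all lay below the medium arrays, and the difference was -0.29 ± 0.09 (adjusted p = 0.0279) after quantile normalization but -0.012 under 75th percentile scaling. In MK2-/- and MK2/3-/- BMDM the values were -0.19 and -0.18 (adjusted p = 0.185 and 0.158), and under 75th percentile scaling both turned positive (0.16 and 0.11). The related Lamp2 differed by 0.02, -0.13 and 0.04 in wt, MK2-/- and MK2/3-/- BMDM by the probe used. A second Lamp2 probe gave -0.31, -0.37 and -0.19 and was not called (limma adjusted p over all probes 0.317, 0.235 and 0.509). Whether Lamp2 was near 0 thus depended on the probe. Scarb2 (LIMP-2, the receptor that carries β-glucocerebrosidase to lysosomes) differed by -0.01, -0.04 and 0.03.

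Mcoln1, the TRPML1 cation channel through which lysosomes release calcium, was called in MK2/3-/- BMDM. It read 13.57, 13.52, 13.44 and 13.60 in medium and 12.96, 12.78, 13.12 and 13.15 with LPS, with no overlap, and fell by 0.53 ± 0.15 (adjusted p = 0.0136). In wt BMDM the value was -0.43 ± 0.15 (adjusted p = 0.0597, and 0.0250 with the culture as a random block), again with no overlap. In MK2-/- BMDM it was -0.40 ± 0.16 (adjusted p = 0.108), where culture 4 read 13.43 with LPS and the other LPS arrays 12.73, 12.73 and 12.88. Mcoln1 was lower with LPS in 10 of 11 cultures. Under 75th percentile scaling its values kept their sign (-0.10, -0.08 and -0.19) and none was called.

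Laptm5, a lysosomal transmembrane protein of blood cells, was called in MK2/3-/- BMDM as well. It read 15.84, 16.24, 15.54 and 15.65 in medium and 15.13, 15.03, 15.59 and 15.08 with LPS, so that replicate 3 with LPS overlapped the medium arrays. It fell by 0.61 ± 0.19 (adjusted p = 0.0227). The second Laptm5 probe moved the same way, with -0.59, -0.42 and -0.95 in wt, MK2-/- and MK2/3-/- BMDM and adjusted p-values over all probes of 0.0320, 0.167 and 0.000702, against -0.37, -0.47 and -0.61 for the probe used. Under 75th percentile scaling the difference of the probe used in MK2/3-/- BMDM was -0.20 and was not called. Cd63, a tetraspanin of late endosomes, differed by -0.14, -0.26 and -0.41 and was not called.

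**Figure D3:**
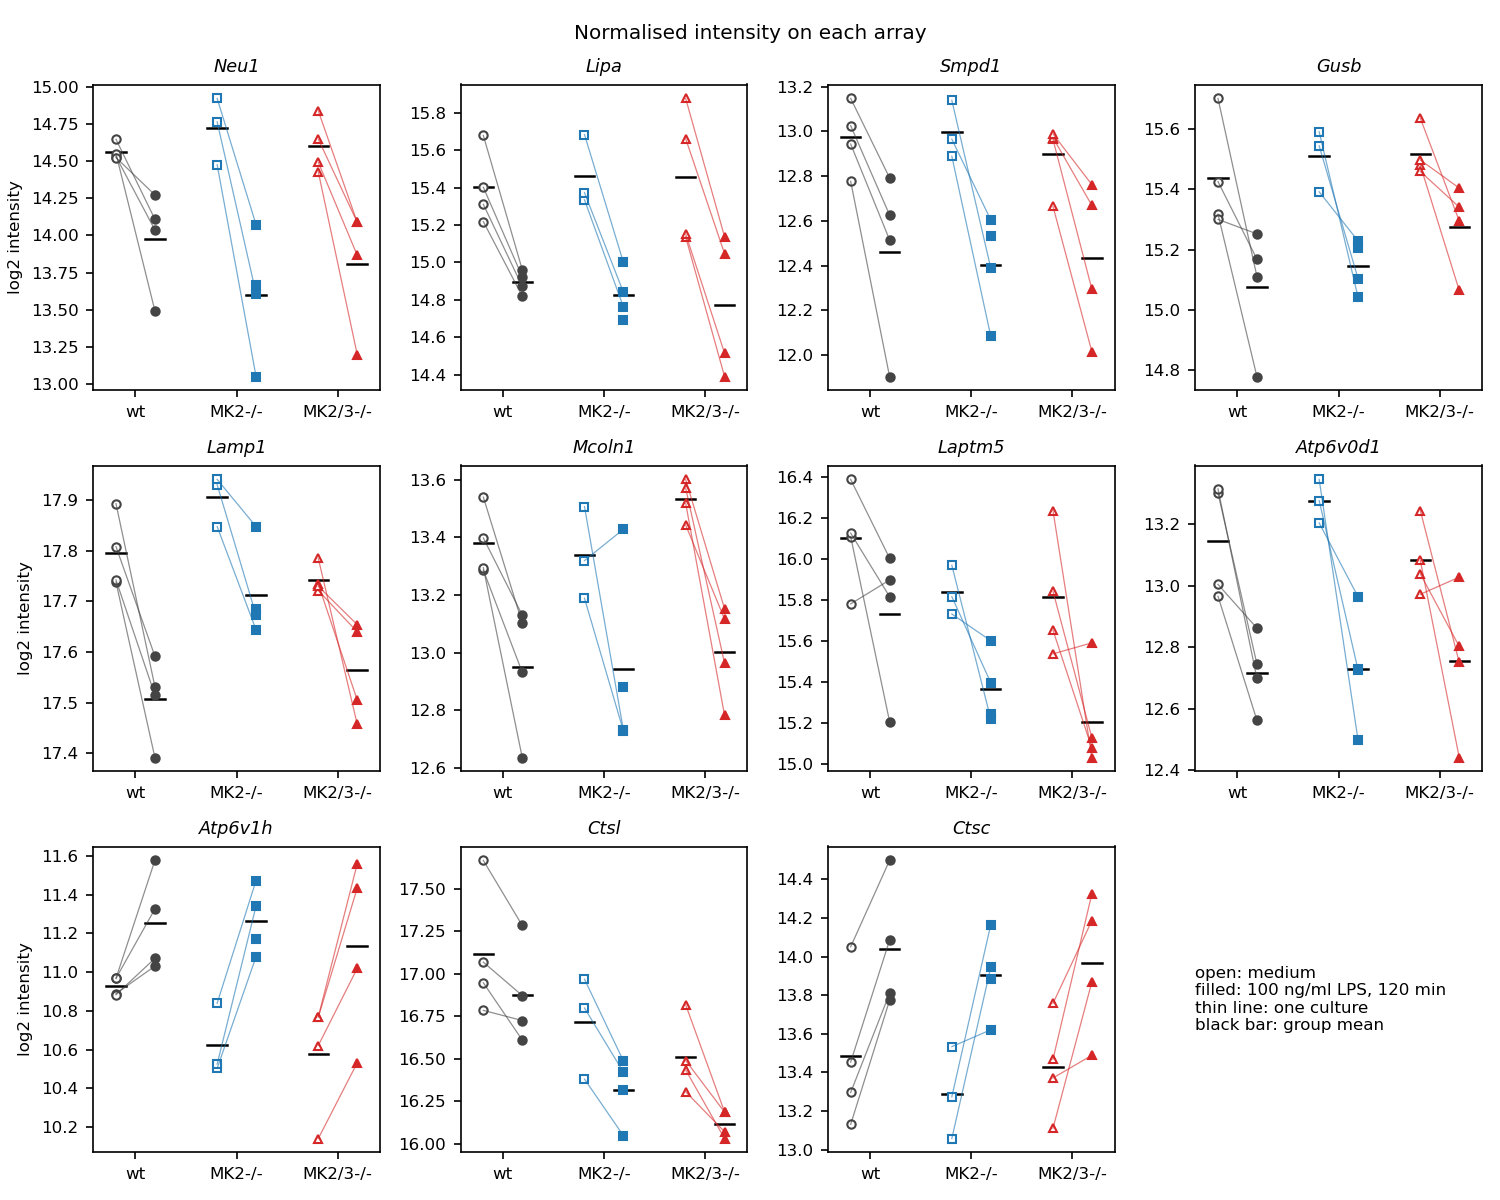
Normalized log2 intensity of 11 genes on each array, in medium (open) and with LPS (filled), by genotype, with thin lines joining medium and LPS arrays of a culture and black bars at group means. After quantile normalization the lines of Neu1, Lipa, Smpd1, Gusb, Lamp1 and Ctsl fall in 11 of 11 cultures and those of Atp6v1h and Ctsc rise in 11 of 11, and under 75th percentile scaling Lipa and Smpd1 still fall and Atp6v1h and Ctsc still rise in 11 of 11, whereas Gusb rises in 9, Lamp1 in 10, Ctsl in 6 and Neu1 in 1 of them.

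Of the 5 listed V-ATPase genes, which encode parts of the pump that acidifies lysosomes, Atp6v0d1 was lower and Atp6v1h higher with LPS. Atp6v0d1 is a subunit of the membrane-embedded V0 sector. In wt BMDM it read 13.30, 13.32, 12.97 and 13.00 in medium and 12.75, 12.70, 12.56 and 12.86 with LPS, and in MK2-/- BMDM 13.35, 13.28 and 13.20 in medium and 12.50, 12.73, 12.73 and 12.96 with LPS. The groups overlapped in neither genotype. Atp6v0d1 fell by 0.43 ± 0.13 in wt and by 0.55 ± 0.14 in MK2-/- BMDM (adjusted p = 0.0315 and 0.0106), and in MK2/3-/- BMDM the value was -0.33 ± 0.13 (adjusted p = 0.0834, and 0.0469 with the culture as a random block). Under 75th percentile scaling the 3 values were -0.12, -0.23 and -0.02, and none was called.

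Atp6v1h, the H subunit of the cytosolic V1 sector, was the member whose rise was called most often across settings. In MK2-/- BMDM it read 10.50, 10.84 and 10.53 in medium and 11.08, 11.47, 11.17 and 11.34 with LPS. The MK2/3-/- arrays read 10.77, 10.77, 10.14 and 10.62 in medium and 11.43, 11.56, 10.53 and 11.02 with LPS. In wt BMDM it read 10.97, 10.97, 10.89 and 10.88 in medium and 11.33, 11.58, 11.03 and 11.07 with LPS. The groups overlapped only in MK2/3-/- BMDM, through culture 3, which was lowest in both treatments.

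Atp6v1h rose by 0.64 ± 0.21 in MK2-/- BMDM (adjusted p = 0.0404) and by 0.56 ± 0.20 in MK2/3-/- BMDM (adjusted p = 0.0431), and the value in wt BMDM was 0.32 ± 0.20 (adjusted p = 0.329). The rise in MK2-/- BMDM was called in all 15 other settings that did not leave out a single array, among them 75th percentile scaling (0.76, adjusted p = 0.0201). It lost its call in 5 of the fits that left out 1 array each, all of them MK2-/- arrays, and the one in MK2/3-/- BMDM in 11 of them. Atp6v1a, the catalytic A subunit, had values between -0.11 and 0.02 by the probe used. Its second probe gave -0.34, -0.15 and -0.16 in wt, MK2-/- and MK2/3-/- BMDM and was not called. Atp6ap1, an accessory subunit, had values of -0.47, -0.19 and -0.46 and was not called (adjusted p = 0.105, 0.626 and 0.0889).

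None of the 12 lysosomal proteases was called with LPS in any genotype without the culture block, with which Ctsc was higher in all 3 genotypes, Ctsa lower in MK2-/- and MK2/3-/- (adjusted p = 0.0354 and 0.0372) and Tpp1 lower in wt BMDM (adjusted p = 0.0259). These were the 9 cysteine proteases (Ctsb, Ctsc, Ctsf, Ctsh, Ctsk, Ctsl, Ctss, Ctsz and Lgmn), the serine carboxypeptidase Ctsa, the aspartic protease Ctsd and the tripeptidyl peptidase Tpp1. Without correction, Ctsc had a p-value under 0.05 in all 3 genotypes, Ctsa in both knockouts, and Tpp1 in wt and MK2/3-/- BMDM, and the methods' t-test is given with the other settings. Ctsb, the abundant cathepsin B, differed by 0.08 ± 0.12, 0.02 ± 0.13 and 0.08 ± 0.12 in wt, MK2-/- and MK2/3-/- BMDM. Cathepsin D (Ctsd) differed by -0.11 ± 0.15, -0.22 ± 0.16 and -0.05 ± 0.15 by the probe used. A second Ctsd probe gave -0.52, -0.27 and -0.65 and was not called (limma adjusted p over all probes 0.277, 0.659 and 0.118). For Ctsa a second probe gave -0.27, -0.33 and 0.18, also not called. Ctss, which trims the invariant chain of MHC class II, differed by -0.22 ± 0.17, -0.22 ± 0.19 and -0.18 ± 0.17.

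Ctsc and Ctsz are described further because of their values under other settings, so they were chosen after their values were seen. Ctsc, or dipeptidyl peptidase 1, activates granule serine proteases. It read 13.30, 13.45, 14.05 and 13.13 in medium and 13.81, 14.08, 14.50 and 13.77 with LPS in wt BMDM, and each of these cultures read higher with LPS. The differences were 0.56 ± 0.22, 0.61 ± 0.24 and 0.54 ± 0.22 in wt, MK2-/- and MK2/3-/- BMDM (adjusted p = 0.104, 0.0897 and 0.0900). With the culture as a random block the adjusted p-values were 0.0397, 0.0365 and 0.0354, and under 75th percentile scaling the differences were 0.92, 0.97 and 0.94 (adjusted p = 0.0225, 0.0230 and 0.0147). Ctsz, a carboxypeptidase, differed by 0.32, 0.18 and 0.30 without a call after quantile normalization and by 0.64, 0.57 and 0.69 under 75th percentile scaling, where it was called in wt and MK2/3-/- BMDM (adjusted p = 0.0305 and 0.0151). Both genes were higher with LPS in 11 of 11 cultures under either scaling.

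The scaling of the arrays set where 0 lay for these bright probes. Quantile normalization gave the members a median LPS difference of -0.24, -0.22 and -0.19 in wt, MK2-/- and MK2/3-/- BMDM, against 0.0051, -0.011 and -0.024 for all genes and -0.061, -0.071 and -0.083 for the genes well above background. Scaling to the 75th percentile moved the median of all genes to 0.15, 0.20 and 0.063, and that of the members to 0.024, 0.11 and 0.095. Relative to the median of all genes, the members thus stood at -0.24, -0.21 and -0.17 in the first case and at -0.13, -0.09 and 0.03 in the second. Relative to the genes well above background they stood at -0.18, -0.15 and -0.11, and at -0.057, 0.039 and 0.046. Under 75th percentile scaling, where 15.8%, 17.1% and 21.6% of all entries were called, the calls among the members were Ctsc and Ctsz higher in wt BMDM, Atp6v1h and Ctsc higher and Neu1 lower in MK2-/- BMDM, and Sgsh (by the probe used), Ctsc, Atp6v1h and Ctsz higher in MK2/3-/- BMDM. Of the genes called after quantile normalization, Neu1 in MK2-/- BMDM, Atp6v1h in both knockouts and Sgsh in MK2/3-/- BMDM were called the same way under both scalings.

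**Figure D4:**
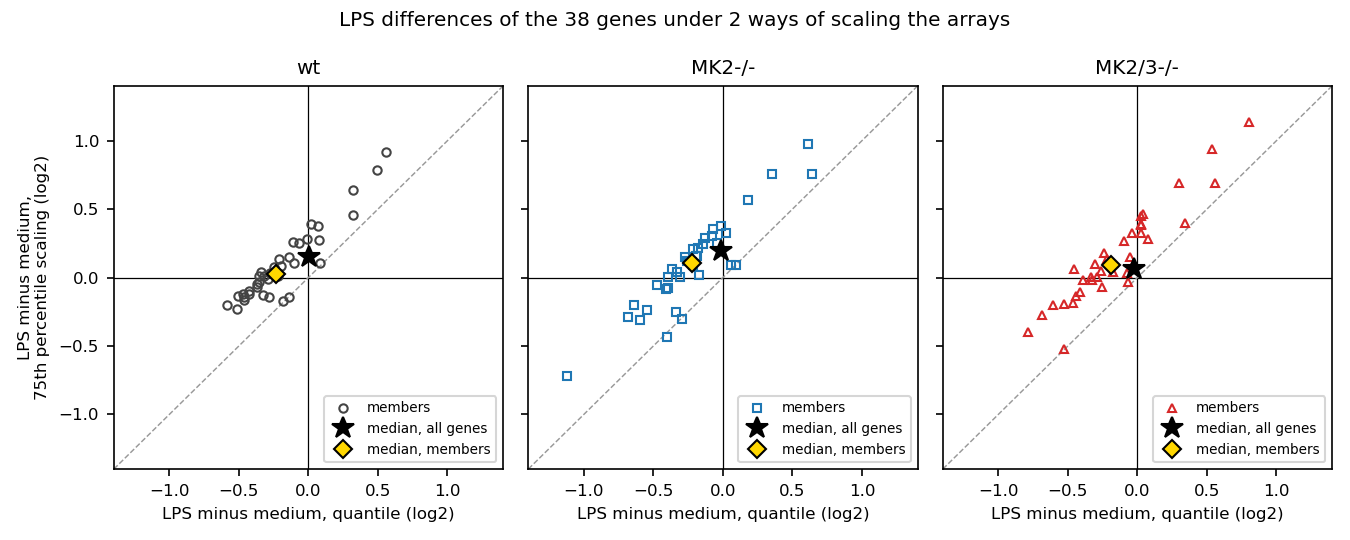
LPS minus medium difference of the 38 genes under quantile normalization (horizontal, log2) and under scaling to the 75th percentile (vertical, log2) in each genotype, with the medians of all genes (star) and of the members (diamond). Nearly all points lie above the dashed line of equality, and the number of members below 0 falls from 30 to 16 in wt, from 31 to 11 in MK2-/- and from 27 to 12 in MK2/3-/- BMDM, while Neu1 in MK2-/- BMDM stays the lowest point (-1.12 and -0.72).

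Taking the culture into account called more genes. Medium and LPS arrays of 1 culture deviated together from their group means (median correlation 0.493 over genes well above background). Arrays of the same treatment and culture number in different genotypes mostly did so too (median 0.373), so this was not particular to a culture. The culture as a random block had a correlation of 0.241. With it, 11, 9 and 10 members were called in wt, MK2-/- and MK2/3-/- BMDM, against 22%, 23.7% and 30.9% of all entries. These included all 3, 5 and 6 genes called without it. The additional genes were Ctsc, higher in each genotype, and, all lower, Glb1, Lipa, Mcoln1, Naglu, Neu1, Smpd1 and Tpp1 in wt, Ctsa, Gusb and Hexa in MK2-/-, and Atp6v0d1, Ctsa and Smpd1 in MK2/3-/- BMDM. Lipa and Neu1 were then called lower in all 3 genotypes, as were Smpd1 and Atp6v0d1.

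The promoters of many members hold the palindrome CACGTG, the core of the motif bound by MiT/TFE factors, and those of the members called with LPS or between genotypes that hold it are shown. RefSeq promoters (build GRCm38.p6, from 250 bases before to 50 after the transcript start) were at hand for 32 of the 38 genes, 35 promoters in all. CACGTG was present in 14 of the 35 (40%), against 2349 of 32851 promoters of that length (7.15%). The longer TCACGTG, searched on both strands and containing the core, was present in 12 (34.3%), against 1237 (3.77%). The stretches below are written 5′ to 3′ on the strand of the gene, with CACGTG and an adjoining T before or A after it in capitals. They lie at chr8:13159080-13159171 (Lamp1, plus strand), chr8:3500428-3500499 (Mcoln1, plus), chr8:105566042-105566087 (Atp6v0d1, minus), chr11:119355514-119355559 (Sgsh, minus) and chr13:64370731-64370770 (Ctsl, minus).
Lamp1: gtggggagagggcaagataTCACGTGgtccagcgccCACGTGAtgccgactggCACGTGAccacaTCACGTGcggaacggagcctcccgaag
Mcoln1: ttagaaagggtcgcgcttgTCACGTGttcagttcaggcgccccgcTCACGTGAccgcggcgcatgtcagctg
Atp6v0d1: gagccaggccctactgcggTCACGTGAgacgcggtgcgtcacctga
Sgsh: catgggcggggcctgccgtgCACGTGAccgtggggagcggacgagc
Ctsl: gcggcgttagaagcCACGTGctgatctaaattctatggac

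Lamp1 holds the core 4 times, from 61 to 15 bases before the start, and Mcoln1 holds it 2 times. In Atp6v0d1 it lies 3 bases before the start, in Sgsh 29 and in Ctsl 236, counted from the start that the promoter entry uses. For Ctsl that start lies inside the annotated extent of the gene (chr13:64361890-64370772), as does the stretch shown. Of the 10 genes called in an LPS comparison 9 had a promoter entry, and 4 of these held the core (Lamp1, Mcoln1, Atp6v0d1 and Sgsh) and 5 did not (Neu1, Lipa, Smpd1, Gusb and Laptm5). Of the 28 genes that were not called, 23 had an entry and 10 held the core. The presence of these letters is a description of the window and was not tested for binding.

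Transcripts of the factors themselves changed with LPS. In wt BMDM Tfec rose by 5.01 ± 0.21 and Mitf by 1.52 ± 0.36 and Tfeb fell by 2.39 ± 0.58 with LPS, and these 3 had the same signs and calls in both knockouts, while Tfe3 was called in MK2/3-/- BMDM only (1.02).

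Between genotypes few of the lysosomal genes were called, and few of all entries were. In medium none of the 38 genes was called for MK2-/- against wt (0.00769% of all entries were), for MK2/3-/- against wt (0.0769%) or for MK2/3-/- against MK2-/- BMDM (0.0461%). The counts at an unadjusted p-value under 0.05 were 1 (Sgsh, 0.57), 1 (Ctsl, -0.61) and 0, and the methods' t-test with Benjamini-Hochberg adjustment called 0 in each. After LPS, MK2-/- BMDM did not differ from wt BMDM by a called amount in any of the 38 genes (0.0308% of all entries were called, unadjusted count 3, t-test 0), nor MK2/3-/- from MK2-/- BMDM (0.161%, unadjusted count 0, t-test 0). In MK2/3-/- against wt BMDM after LPS 1 of 38 was called, Ctsl, which was lower, against 1.64% of all entries in either direction and 0.869% that were lower. For 35, 32 and 35 genes the 95% interval after LPS lay within 2-fold in the comparisons of MK2-/- with wt, MK2/3-/- with wt and MK2/3-/- with MK2-/- BMDM, and in medium this held for 33, 35 and 35. In the same comparisons after LPS, 15, 18 and 22 of the 38 differences lay below 0 with quantile normalization. With 75th percentile scaling 7, 7 and 12 did. In medium the counts were 16, 19 and 26 with the first and 10, 8 and 15 with the second. The general direction between genotypes thus depended on the scaling.

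Ctsl encodes cathepsin L, an endopeptidase of broad specificity. In wt BMDM it read 17.67, 16.95, 17.07 and 16.78 in medium and 17.29, 16.61, 16.87 and 16.73 with LPS. In MK2-/- BMDM it read 16.97, 16.80 and 16.38 in medium and 16.49, 16.42, 16.31 and 16.05 with LPS. The MK2/3-/- arrays read 16.31, 16.49, 16.82 and 16.43 in medium and 16.07, 16.19, 16.19 and 16.03 with LPS. With LPS every array of either knockout lay below every wt array, while in medium the genotypes overlapped.

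After LPS the Ctsl level of MK2/3-/- BMDM differed from that of wt BMDM by -0.75 ± 0.19 (95% interval -1.15 to -0.36, adjusted p = 0.0496, exact permutation p = 0.0286), and that of MK2-/- BMDM by -0.56 ± 0.19 (adjusted p = 0.521, exact permutation p = 0.0286). In medium the corresponding value for MK2/3-/- BMDM was -0.61 ± 0.19 (adjusted p = 0.715), and the LPS response of Ctsl did not differ by a called amount (-0.15, 95% interval -0.71 to 0.41). Its adjusted p was just under the threshold, and the call was lost under 75th percentile scaling (-0.48, adjusted p = 0.243), with the t-test, with only these groups in the fit, and in 19 of the fits that left out 1 array each (-0.84 to -0.62). The wt culture with the highest Ctsl, culture 1, was also the one with the highest summed signal of 5 stromal cell markers, 105800 in medium and 87750 with LPS on the linear scale, against at most 35930 in other wt cultures. In the knockouts the array with the highest stromal sum did not have the highest Ctsl of its group. The MK2-/- culture with the highest stromal sum, culture 4 (34630 in medium and 32260 with LPS), had the lowest Ctsl (16.38 and 16.05). With LPS the MK2/3-/- array with the highest sum, replicate 4, also had the lowest Ctsl of its group (16.03). In medium MK2/3-/- replicate 4 had the highest sum (58990) and read 16.43. The lowest Ctsl there (16.31) was that of replicate 1, which had the lowest sum (543.1). Summed stromal signal ranged from 3894 to 87750 in wt and from 885.5 to 48990 in MK2/3-/- BMDM with LPS, with 3 and 2 of the 5 markers above background on all arrays of the group. Its part in the Ctsl difference was not tested.

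**Figure D5:**
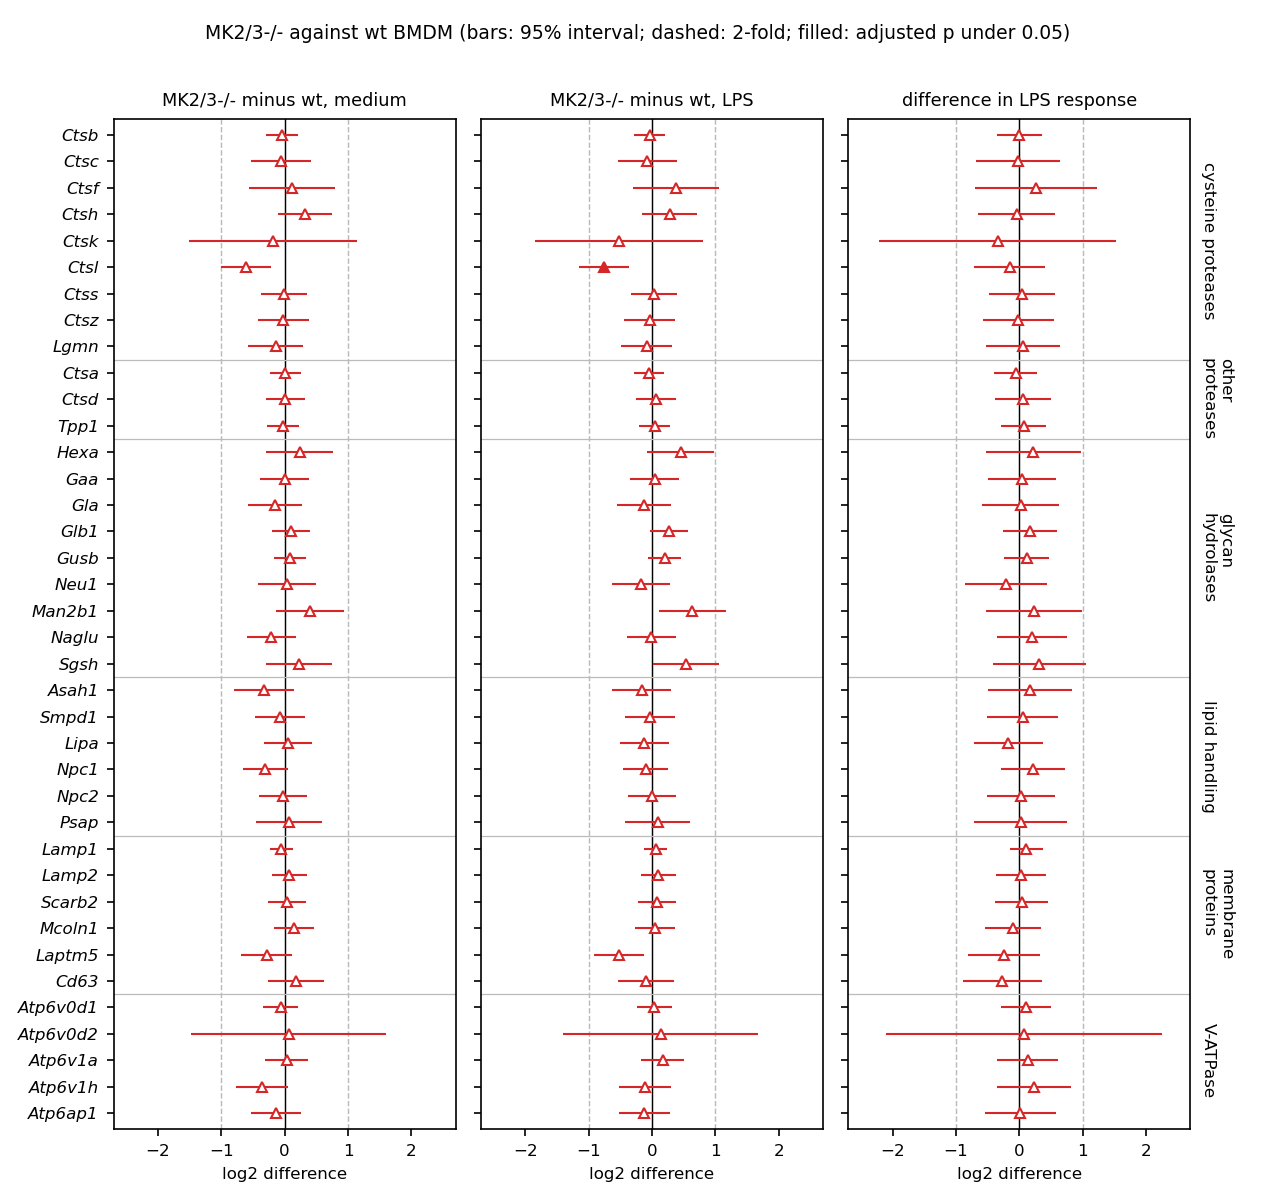
Difference of MK2/3-/- from wt BMDM for each of the 38 genes in medium, after LPS and in the LPS response (log2, quantile-normalized), with 95% intervals as bars, dashed lines at 2-fold and called differences filled. The single filled point is Ctsl after LPS (-0.75), which was -0.48 and not called under 75th percentile scaling, and the widest intervals belong to Ctsk and Atp6v0d2.

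The LPS response of the lysosomal genes did not differ between genotypes by a called amount in any of the 3 comparisons. None of the 38 genes was called for MK2-/- against wt (0.00384% of all entries were), for MK2/3-/- against wt (0.0115%) or for MK2/3-/- against MK2-/- BMDM (0%), and 0 members in each had an unadjusted p-value under 0.05. The t-test was not run for these differences. The median difference in response over the members was -0.03, 0.04 and 0.05 after quantile normalization. The 95% intervals lay within 2-fold for 32, 34 and 30 genes. Those of Neu1, Hexa, Ctsk, Atp6v0d2 and others reached beyond, so a gene called with LPS in 1 genotype and not in another was not shown to respond differently.

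Ctsk and Atp6v0d2 varied more between cultures than between groups. Ctsk is the cathepsin of bone resorption, and Atp6v0d2 is the d2 isoform of the V0 sector, found in osteoclasts and some macrophages. Over the 23 arrays Ctsk ranged from 6.71 to 10.22 and Atp6v0d2 from 6.59 to 9.50. Ctsk was highest in wt culture 1 (10.22 in medium and 10.11 with LPS), the culture with the highest stromal marker signal. The 8 osteoclast markers summed to 6601 to 15090 in wt medium, 7652 to 17050 in MK2-/- medium and 8099 to 18880 in MK2/3-/- medium, and to 9991 to 20680, 12920 to 28070 and 10470 to 21380 with LPS, with 5 to 7 of the 8 above background on all arrays of a group. The part of these cell types in the spread was not tested. The LPS differences of Ctsk were -0.19 ± 0.63, -0.40 ± 0.68 and -0.53 ± 0.63 and those of Atp6v0d2 -0.14 ± 0.74, -0.29 ± 0.79 and -0.07 ± 0.74, and their 95% intervals reached beyond 2-fold.

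Further genes of the same organelle were examined from lists of the pathway, and their counts are read against the 17.1%, 18.6% and 24.9% of all entries called with LPS in wt, MK2-/- and MK2/3-/- BMDM. Of 13 other V-ATPase genes, 1 was higher and 1 lower in wt BMDM, 1 and 2 in MK2-/- and 3 and 3 in MK2/3-/- BMDM, which is 15.4%, 23.1% and 46.2% of the list. Atp6v1e1, the E1 subunit of the V1 sector, rose by 0.89 ± 0.19 and Atp6v1d, its D subunit, fell by 0.46 ± 0.11 in wt BMDM, and the latter was -0.079 under 75th percentile scaling. Of 31 other lysosomal hydrolases 1 was higher and 4 lower in wt BMDM, 2 and 3 in MK2-/- and 2 and 4 in MK2/3-/- BMDM (16.1%, 16.1% and 19.4%). In wt BMDM these included the lysosomal phospholipase Pla2g15, which fell by 1.36 ± 0.36, the acid nuclease Dnase2a, which fell by 0.92 ± 0.24, and the cathepsin Ctsw, which rose by 0.71 ± 0.21.

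Of 22 other lysosomal membrane genes 3 were higher and 4 lower in wt BMDM, 2 and 5 in MK2-/- and 4 and 7 in MK2/3-/- BMDM (31.8%, 31.8% and 50%). This share lay above that of all entries in each genotype. Of the genes well above background on every array, however, 28.2%, 29.4% and 39.5% were called. Cln3, which encodes a lysosomal membrane protein, rose by 1.84 ± 0.29, while the cystine exporter Ctns fell by 1.91 ± 0.39 and the nucleoside transporter Slc29a3 by 1.37 ± 0.41 in wt BMDM, and these 3 were called with the same sign in both knockouts. Of 11 genes of enzyme sorting, 1 was higher and 2 lower in wt BMDM and 1 and 1 in either knockout (27.3%, 18.2% and 18.2%). Nagpa, the enzyme that uncovers the mannose 6-phosphate signal, rose by 1.17 ± 0.17, and the Golgi adaptors Gga3 and Gga2 fell by 0.61 ± 0.13 and 0.45 ± 0.15 in wt BMDM. Of 8 measured cathepsin inhibitors Cst7, or cystatin F, rose by 2.75 ± 0.69 in wt BMDM and was also called higher in both knockouts (2.76 ± 0.75 and 3.55 ± 0.69).

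Between genotypes 1 gene of these 5 lists (13, 31, 22, 11 and 8 genes measured) was called, Ctse. The call was for MK2/3-/- against wt BMDM after LPS, where 1.64% of all entries were called. Ctse was named because of this call, so after its values were seen. It encodes cathepsin E, an aspartic protease of the endosomal system. In medium it read 5.05, 6.02, 11.11 and 6.20 in wt, 13.11, 12.63 and 12.47 in MK2-/- and 12.62, 12.15, 12.18 and 12.17 in MK2/3-/- BMDM. With LPS it read 4.95, 6.01, 10.81 and 5.73 in wt, 12.88, 11.99, 11.88 and 12.38 in MK2-/- and 12.30, 11.93, 11.74 and 12.03 in MK2/3-/- BMDM. Every array of both knockouts lay above every wt array, and among the wt cultures culture 3 alone read near the knockouts.

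Ctse was higher in MK2/3-/- than in wt BMDM after LPS by 5.13 ± 1.09 (adjusted p = 0.0217), and the values in medium (5.18 ± 1.09, adjusted p = 0.131) and for MK2-/- BMDM (5.64 ± 1.18 in medium and 5.41 ± 1.09 after LPS, adjusted p = 0.355 and 0.124) were of like size without a call. With scaling to the 75th percentile the 4 differences ranged from 5.07 to 5.52. With LPS its differences were -0.22, -0.45 and -0.28 and none was called. By the RefSeq annotation of GRCm38.p6, Ctse lies on chromosome 1 near Mapkapk2, the gene deleted in both knockouts, with 7 protein-coding genes between them. Within wt BMDM, culture 3 had the lowest Mapkapk2 (11.49 in medium and 14.19 with LPS, others 12.28 to 12.64 and 14.67 to 15.37) and the highest Sgsh by the probe used (17.05 and 17.73). Its Mapkapk2 still lay above that of every knockout array (8.57 to 9.07 in medium and 11.54 to 12.30 with LPS). Its Ctsl (17.07 in medium and 16.87 with LPS) also lay above that of every knockout array of the same treatment. Whether position or culture bears on the Ctse difference was not tested.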

How the data were processed

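RNA of 23 BMDM samples was labeled with Cy3 and hybridized to Agilent SurePrint G3 mouse arrays. Per the file headers, the authors extracted the deposited spot intensity with Feature Extraction 11.0.1.1, which subtracts background. Their deposited log2 table is quantile-normalized and centered on each probe's median. It correlated (r = 0.9998) with values made here in that way with non-uniform and outlier spots kept. It was not used in the main fit but was fitted as an alternative.

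Control spots were left out, non-uniform and outlier spots set missing, and spots of a probe averaged. The log2 intensities were quantile-normalized over 23 arrays, and the probe with the largest LPS difference in wt BMDM stood for a gene, as in the study's methods, so this choice used that contrast. Of 32885 probes with an NCBI accession this left 26014 entries. No spot was saturated. The number of arrays limits the precision.

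Groups were fitted together with lmFit and eBayes (limma 3.58.1, R 4.3.3), two-sided, with Benjamini-Hochberg adjustment, and exact permutation tests were two-sided. The steps were tested on simulated data. Deviations from group means correlated within the 11 culture pairs at 0.359 to 0.776 over 12570 genes above background. The alternatives were the deposited table, the scaling, background, probe and filter choices, the t-test, blocks and leaving out arrays. Members named array by array were the 4 called members with the largest rise and the 4 with the largest fall in each LPS comparison and any called between genotypes. Members and lists were chosen with earlier results of these data known. Figures used Python 3.11.15 and matplotlib 3.10.9.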

Additional observations from a re-analysis of the deposited data

Results flagged for a closer look

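Among the genes given array by array, 55 groups of 4 arrays were examined and 3 held an array far from the other 3, where chance gives about 1 in 20. Smpd1 in MK2/3-/- BMDM in medium read 12.6649 in replicate 2, below the others (12.964 to 12.9887). Sgsh, by the probe used, read 17.7255 in wt BMDM with LPS in replicate 3, above the others (16.8513 to 16.8864). Laptm5 in MK2/3-/- BMDM with LPS read 15.5928 in replicate 3, above the others (15.0334 to 15.1288).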

How the results depend on the processing

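The counts of called members moved with the settings, and several calls lay close to the threshold. In wt BMDM 3 genes called with LPS became 5 with normexp background, 8 with only probes well above background in a whole group, 5 with intensities under 5 raised to 5, 5 with an intensity trend, 1 with only the groups compared, 11 with either replicate block (by culture or by number) and 5 with the least induced probe. In MK2-/- BMDM 5 became 3 with 75th percentile scaling, 9 with the culture block and 3 without the 2 arrays lacking a gradient fit. In MK2/3-/- BMDM 6 became 3 with only the groups compared, 2 with the t-test and 10 with either replicate block. The share of all entries called moved too. In wt, MK2-/- and MK2/3-/- BMDM it was 17.1%, 18.6% and 24.9% in the main fit. It was 15.8%, 17.1% and 21.6% under 75th percentile scaling, and 22%, 23.7% and 30.9% with the culture block. For the other settings that share is not given here, so those changes in count were not read against it. For MK2/3-/- against wt BMDM after LPS the 1 call (Ctsl) became 0 with 75th percentile scaling, only the groups compared, the t-test or without the 2 arrays lacking a gradient fit. The least induced probe and the leaving out of those 2 arrays were chosen after seeing the data. Leaving out 1 array at a time gave 0 to 5 calls in wt, 2 to 6 in MK2-/- and 2 to 9 in MK2/3-/- BMDM with LPS, 0 to 1 for MK2/3-/- against wt after LPS and 0 in the 8 other comparisons. Gusb in wt BMDM was 0.0092 under 75th percentile scaling. Sgsh in MK2/3-/- BMDM was -0.27 as the mean over probes and -1.35 by the least induced probe. The cause was not tested. Neither block changed a call between genotypes. When arrays were left out 1 at a time, Neu1 and Atp6v0d1 in MK2-/- and Lipa in MK2/3-/- BMDM were called each time, Mcoln1 and Neu1 in MK2/3-/- BMDM lost their call in 1 fit each (without LPS replicate 2), and Gusb in wt and Smpd1 in MK2-/- BMDM lost theirs in 17 and 16 fits. The lowest counts came without wt LPS replicate 1 or medium replicate 2, MK2-/- LPS or medium replicate 3, and MK2/3-/- LPS replicate 2.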
